A study of Caenorhabditis elegans with 79 samples.

Results

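RDE-1 is the Argonaute protein of Caenorhabditis elegans that takes up siRNAs cut from double-stranded RNA. The small RNAs bound to it in animals fed an empty RNAi vector were examined here in 3 co-immunoprecipitates (co-IPs) of GFP::RDE-1 and the 3 lysates (inputs) that stand beside them. These are 6 of the 79 small RNA libraries that the labels list, taken by the strain, the vector name L4440 and the fraction in their titles. No double-stranded RNA against a worm gene was fed in them.

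All 6 libraries came from gravid hermaphroditic adults, whole animals grown at 20 °C for 68 or 72 hours from synchronised L1 larvae. The strain carries 2 edited genes. Allele cmp133 adds gfp, loxP and 3xFLAG to rde-1 on chromosome V, and allele cmp320 adds 2xFLAG to rde-4 on chromosome III. Inputs and co-IPs therefore both carry a tagged RDE-1 (GFP with 3xFLAG) and a tagged RDE-4 (2xFLAG), and RDE-4 is the double-stranded RNA-binding partner of Dicer in RNAi. The antibody is not given in the sources used here, and no co-IP from an untagged strain was analysed here. Another 6 libraries of the same strain and table, 3 co-IPs and 3 inputs after dcr-1 RNAi, entered the statistical fit and are given beside the results as a second pair of groups.

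RNAi begins when the enzyme Dicer cuts double-stranded RNA into short duplexes with overhanging 3′ ends. An Argonaute such as RDE-1 takes up such a duplex, keeps the guide strand and discards the passenger strand. RDE-1 with its guide then recruits RNA-dependent RNA polymerases that make secondary siRNAs, the 22G-RNAs, which bind other Argonautes. MicroRNAs (miRNAs) are also Dicer products and mostly enter the Argonautes ALG-1 and ALG-2, while piRNAs arise without Dicer and bind the Argonaute PRG-1. The 26G-RNAs are Dicer products made with an RNA-dependent RNA polymerase and bind ERGO-1 in the embryo and ALG-3 and ALG-4 in the male germline.

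The deposited table names small RNAs by class, and its 23H-RNA class holds 1194 sequences of 21 to 24 nt from 161 source loci, several of which are named as hairpins. Of these sequences 74 begin with G and the rest with another base. The sequences below are the most abundant pairs among them, shown because each pair can form a duplex of the kind that Dicer releases. They are written 5′ to 3′ as the table gives them, with T for U, and the capitals mark the 2 unpaired bases at each 3′ end.
mir-5592 siRNA 1: tgtattaaacggtaagggccgGC
mir-5592 siRNA 4: cggcccttaccgtttaatacaTG
F43E2.6 siRNA 1: tttgccgatgtttctgagatgTC
F43E2.6 siRNA 2: catctcagaaacatcggcaaaTG
The strands of the first pair come from the mir-5592 hairpin on chromosome X, and those of the second from F43E2.6 on chromosome II, a protein-coding gene at chr II:7366455-7368861 on the minus strand (WBcel235, Ensembl). The most abundant sequence of the co-IP came from a hairpin named after Y57G11C.1145, a snoRNA gene at chr IV:14780839-14780933 on the plus strand in the same annotation. A 23-nt sequence listed for Y57G11C.51, at 5.60 RPM in the co-IPs, also begins with the 21-nt and 22-nt forms below. The hairpin sequence is shown with the forms listed under the same hairpin that share its first 21 bases. Here the capitals mark the bases past position 21.
Y57G11C.1145_hairpin siRNA 11: agtggagtggatgacgacgac
Y57G11C.1145_hairpin siRNA 2: agtggagtggatgacgacgacG
Y57G11C.1145_hairpin siRNA 1: agtggagtggatgacgacgacGA
Y57G11C.1145_hairpin siRNA 15: agtggagtggatgacgacgacGAT

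Levels are in RPM, reads scaled to a common library size, as deposited. The listed rows summed to between 671857 and 878088 RPM per library. Depth inferred from the smallest steps in the values lay between 21.4 and 35.9 M reads in 5 of the 6 libraries. For co-IP replicate 2 the step came out close to the rounding of the file, so no depth is given for it. In those 5 libraries 3 reads, a floor that covers counting error only, stand for 0.0836 to 0.140 RPM. Replicates correlated across features with r between 0.974 and 0.994, and co-IPs with inputs between 0.458 and 0.56. Features are not independent replicates.

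23H-RNAs were the class that rose most in the co-IP. Their summed level was 20260, 34310 and 28650 RPM in the 3 co-IPs and 825.0, 828.5 and 928.4 RPM in the 3 inputs, a ratio of means of 32.2. Every co-IP stood above every input. As a share of the summed level of a library, 23H-RNAs made up 3.21% ± 0.865 (SD, n = 3) of the co-IP and 0.124% ± 0.00262 of the input. An exact two-sided permutation test gave p = 0.1, the smallest that 3 against 3 libraries allow.

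The other classes moved less or in the opposite direction. MicroRNAs summed to 839000, 791000 and 821300 RPM in the co-IPs and to 496200, 455600 and 494300 RPM in the inputs, so they were the bulk of both, with 94.1% ± 1.298 and 69.6% ± 3.66 of the level (n = 3 each). piRNAs summed to 13120, 16330 and 17920 RPM in the co-IPs against 166900, 210400 and 222500 RPM in the inputs, a ratio of 0.0790. ERGO class 26G-RNAs summed to 3434, 6268 and 5013 RPM against 2037, 2937 and 2905 RPM. None of these 3 classes overlapped between co-IP and input in summed RPM, and each gave an exact permutation p of 0.1. As a share of the library the ERGO class did overlap, at 0.567% ± 0.173 in the co-IP and 0.378% ± 0.0676 in the input (n = 3 each, exact permutation p = 0.3). ALG class 26G-RNAs overlapped in summed RPM, with 355.4, 457.9 and 279.7 RPM against 442.6, 269.8 and 451.2 RPM. CSR class 22G-RNAs stood at 1077, 1269 and 1153 RPM in the co-IPs and 3466, 4173 and 6185 RPM in the inputs. WAGO class 22G-RNAs stood at 621.5, 674.7 and 690.7 RPM against 1261, 1588 and 1818 RPM, so both 22G classes were lower in every co-IP than in any input.

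**Figure D1:**
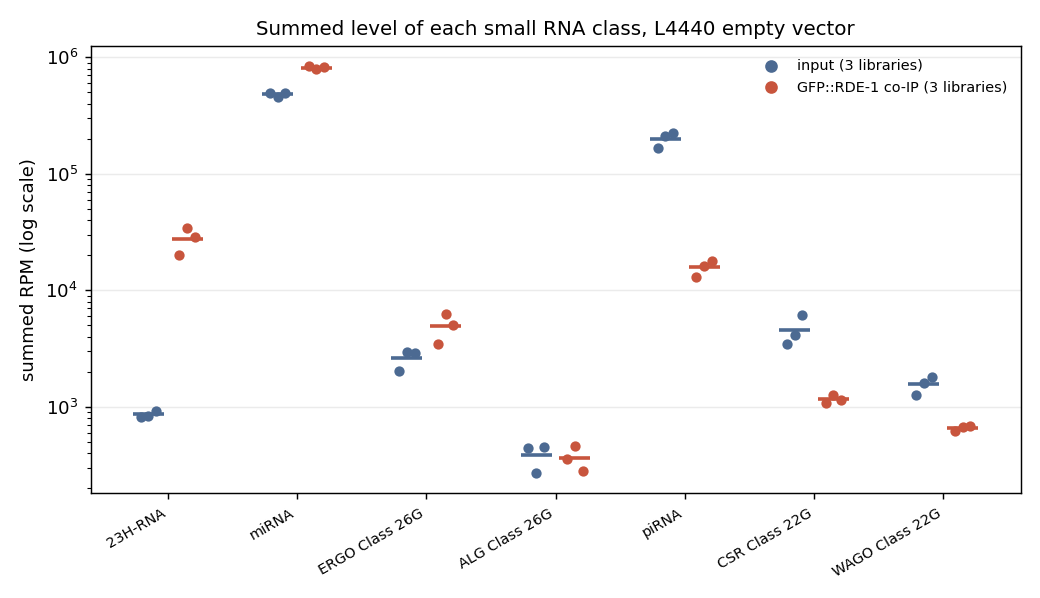
Summed level (RPM, log scale) of each small RNA class in the 3 inputs (blue) and 3 GFP::RDE-1 co-IPs (red) under the empty vector, 1 point per library with a bar at the mean. 23H-RNAs lie between 20260 and 34310 RPM in the co-IPs and between 825.0 and 928.4 RPM in the inputs, while piRNAs lie the other way round.

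Feature by feature, 2516 of 25901 rows had a mean of at least 10 RPM over the 12 libraries and were tested with limma on log2(RPM + 1), at a Benjamini-Hochberg adjusted p under 0.05. Of these 2432 (96.7%) differed between co-IP and input, 166 higher (6.6%) and 2266 lower (90.1%), with a median log2 difference of -3.65 over all tested features. Because RPM values share 1 total, this median depends on scaling. It was -3.90 under equal totals. Under median-of-ratios scaling it was -1.57, with 463 higher and 1759 lower, so that 20.8% of the calls were higher instead of 6.83%.

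Among 23H-RNAs 54 of the 1194 rows passed the filter, 53 were higher and 1 was lower, with a median of 4.51. This count is not independent of the filter, since 42 of the 54 had an input mean under 10 RPM and passed only through their level in co-IPs. When features were filtered on the inputs alone, 11 of the 3572 tested were 23H-RNAs, of which 10 were higher and 1 lower, beside 2.83% higher and 94.7% lower over all features. With no filter, 859 of the 1194 rows were above 0 in at least 1 of the 6 libraries. In 437 of these (50.9%) every co-IP was above every input, and in 10 every co-IP was below every input. Over all 23085 rows above 0, the shares were 2.97% and 60.8%. Among the 2516 tested features every co-IP was above every input in 6.24% and below every input in 90%.

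**Figure D2:**
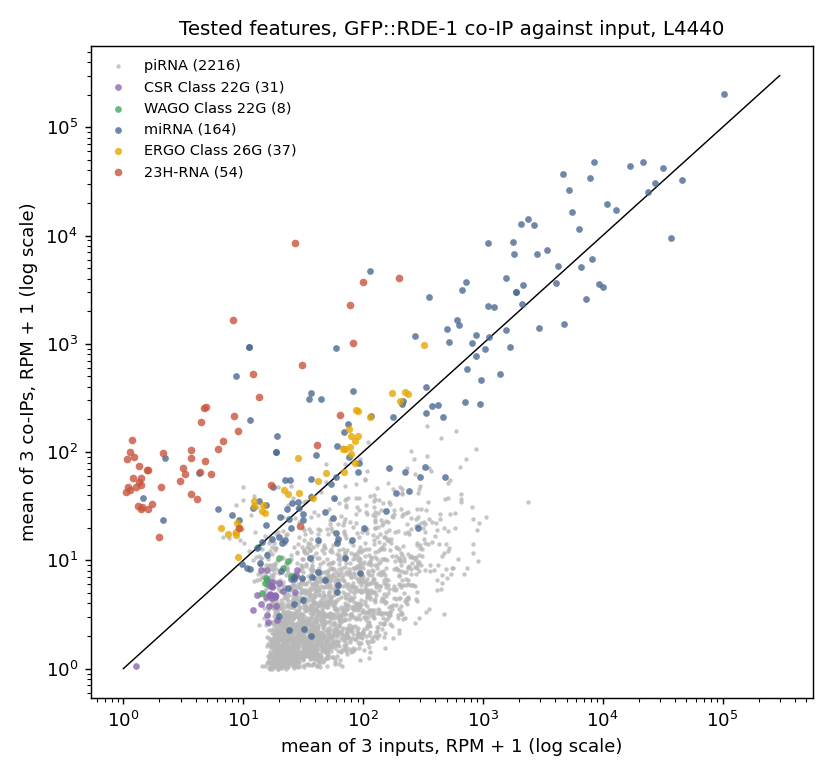
Mean of the 3 inputs (horizontal) against mean of the 3 co-IPs (vertical) for the tested features of 6 classes, both as RPM + 1 on log scales, with the line of equality. The 54 tested 23H-RNAs (red) lie above the line apart from 1, while piRNAs (grey) lie mostly below it, as their medians of 4.51 and -3.83 on the log2 scale state.

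A set of 3 hairpins carried nearly the whole class, with 96.4% ± 0.1996 of the 23H-RNA level in the co-IP and 94.5% ± 0.702 in the input (n = 3). They were not enriched alike. The Y57G11C.1145 hairpin rose from 41.03, 36.46 and 47.98 RPM in the inputs to 8801, 15190 and 10420 RPM in the co-IPs, a ratio of 274. F43E2.6 rose from 217.4, 250.5 and 264.0 RPM to 4563, 8980 and 9072 RPM, a ratio of 30.9. The mir-5592 hairpin rose from 521.5, 490.5 and 572.1 RPM to 6207, 8839 and 8126 RPM, a ratio of 14.6. All 3 were higher in every co-IP than in any input. The order of abundance thus turned over: mir-5592 held 61.3% ± 2.02 of the 23H-RNA level among inputs and 28.3% ± 2.44 among co-IPs, while the Y57G11C.1145 hairpin held 4.85% ± 0.399 and 41.4% ± 4.35 (n = 3, exact permutation p = 0.1 for each). The share of F43E2.6 was 28.3% ± 1.94 among inputs and 26.8% ± 4.6 among co-IPs, and its libraries overlapped (exact permutation p = 0.6).

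The single sequences behind these sums followed their hairpins. Y57G11C.1145_hairpin siRNA 1, the 23-nt form printed above, stood at 6666, 11280 and 7691 RPM in the co-IPs and 26.9, 21.8 and 29.1 RPM in the inputs. Its log2 difference of 8.28 ± 0.21 (SE) was the largest of all tested features, and its adjusted p in limma was 2.64e-25. F43E2.6 siRNA 1 stood at 1548, 4293 and 5339 RPM against 88.5, 110.9 and 99.5 RPM, a log2 difference of 5.03 ± 0.26. Co-IP replicate 1 was the lowest of the 3 yet still above all inputs. F43E2.6 siRNA 2, its duplex partner, stood at 2095, 2846 and 1932 RPM against 73.9, 67.8 and 88.5 RPM (4.87 ± 0.20), and mir-5592 siRNA 1 at 2995, 4682 and 4415 RPM against 192.1, 188.4 and 219.2 RPM (4.30 ± 0.19). Adjusted p-values of these 3 were 3.62e-18, 1.31e-20 and 5.94e-20 in limma.

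Loci of low input level were mixed. Of all 161 sources every co-IP was above every input in 65, none was below, and 96 overlapped or held no reads. Among the 14 sources with an input mean of at least 1 RPM, 10 were higher in every co-IP and 4 overlapped. F31C3.11 overlapped with means of 5.10 RPM in the co-IP and 6.01 RPM in the input, as did F31C3.9 (3.37 and 4.52 RPM) and F31C3.10 (3.28 and 2.96 RPM). The 22 sources with a co-IP mean of at least 10 RPM were chosen by that level, so that all 22 were higher is a description. The ratio of means had a median of 31.4 over the 22 and was lowest, 2.06, for F31C3.7. Only the 3 leading hairpins had an input mean of at least 10 RPM, so the other 19 ratios rest on few input reads. C36A4.14 on chromosome III stood at 174.4, 358.9 and 234.0 RPM in the co-IPs and at 0.68, 1.25 and 1.02 RPM in the inputs. Its siRNA 1 (92.8, 170.6 and 120.3 RPM against 0.14, 0.09 and 0.32 RPM) was next after siRNA 1 and siRNA 2 of the Y57G11C.1145 hairpin among the rises of all tested features, 6.73 ± 0.26 on the log2 scale with an adjusted p of 6.79e-21 in limma. F19B2.5 on chromosome V stood at 64.4, 95.3 and 45.6 RPM against 0.77, 0.84 and 0.71 RPM. The source named PAL8C stood at 35.8, 68.0 and 59.3 RPM, while input replicate 1 held 0.17 RPM and the other 2 inputs were listed at 0. Several such loci also give 26G-RNAs of the ERGO class, and there both kinds can be read side by side. For C36A4.14 the 26G-RNA row stood at 145.4, 288.0 and 193.2 RPM against 87.3, 136.2 and 119.2 RPM, a log2 difference of 0.83 ± 0.22. For T05E12.10 the 23H-RNAs stood at 31.64, 44.72 and 24.04 RPM against 0.68, 0.12 and 0.49 RPM, and the 26G-RNAs at 756.2, 1222 and 967.4 RPM against 276.3, 333.0 and 355.9 RPM. In both loci the 23H-RNAs were at most 1.25 RPM in an input, and the 26G-RNAs were at least 87.3 RPM.

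**Figure D3:**
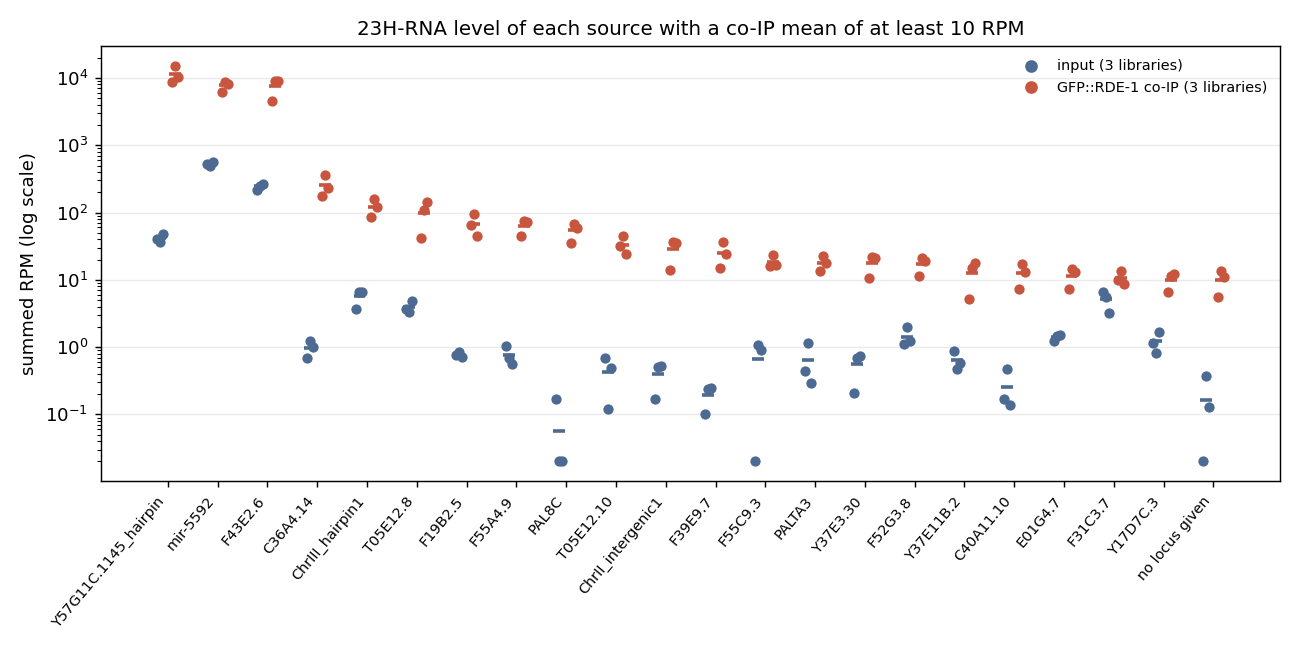
Summed 23H-RNA level (RPM, log scale) of the 22 source loci with a co-IP mean of at least 10 RPM, 1 point per library with a bar at the mean, inputs in blue and co-IPs in red. Libraries listed at 0 are drawn near the lower edge of the axis, and in all 22 loci every co-IP lies above every input.

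Length and first base differed between the 23H-RNAs of the co-IP and those of the input. Sequences of 23 nt held 77.8%, 79.3% and 80.4% of the 23H-RNA level in the co-IPs and 55.5%, 58.0% and 57.3% in the inputs. Those of 22 nt held 16.7% ± 1.39 and 28.1% ± 0.861, and those of 21 nt 2.00% ± 0.189 and 13.3% ± 1.38 (n = 3 each). None of the 3 lengths overlapped between the groups (exact permutation p = 0.1 each), whereas 24 nt did, at 2.13% ± 0.260 and 1.75% ± 0.286 (exact permutation p = 0.3). Put as a ratio of co-IP to input RPM, 21-nt sequences rose 4.81-fold, 22-nt sequences 18.98-fold and 23-nt sequences 44.9-fold. Without the 3 leading hairpins the 23-nt share was 64.0% ± 2.43 in the co-IP and 42.1% ± 4.82 in the input, again without overlap. These comparisons by length and base were chosen after the data were seen.

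Forms that share a 5′ end and differ only at the 3′ end mostly show the same order of 22 and 23 nt within single loci. There were 38 such series with at least 3 lengths and a form of at least 10 RPM in the co-IP. In 13 of them both the 22-nt and the 23-nt form had an input mean of at least 1 RPM, and the 23-nt form had the higher ratio in 12. The series were chosen by a level in the co-IP, which can favour a higher ratio for the form that reached it, so this count is a description. These 13 series came from the 3 leading hairpins alone. In the mir-5592 siRNA 1 series the ratio of co-IP to input was 3.44 for 21 nt, 12.6 for 22 nt, 20.2 for 23 nt and 38.8 for 24 nt. The forms behind these ratios were well covered in the input up to 23 nt, with 63.2 ± 10.2, 80.7 ± 11.4 and 199.9 ± 16.8 RPM, and thin at 24 nt with 2.66 ± 0.611 RPM (n = 3). For the Y57G11C.1145 forms printed above the ratio was 233 at 22 nt and 330 at 23 nt, and their 21-nt and 24-nt forms had input means of only 0.34 and 0.14 RPM. The exception was a mir-5592 series that begins with A, with 15.1, 13.9 and 11.4 for 21, 22 and 23 nt. Between 21 and 22 nt the longer form was ahead in 3 of the 5 series that could be compared, all from mir-5592. The points of a series share their source and most of their sequence, and several series share a hairpin, so neither points nor series are replicates.

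**Figure D4:**
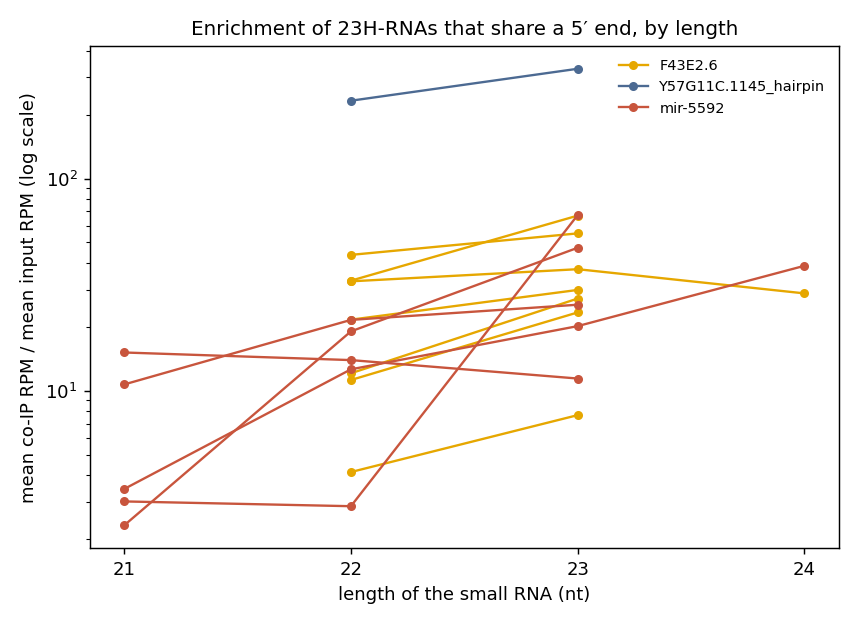
Ratio of mean co-IP to mean input RPM (log scale) against length for 23H-RNAs that share their first 21 bases, 1 line per series, for forms with an input mean of at least 1 RPM. In 12 of the 13 series with both forms the point at 23 nt lies above that at 22 nt.

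Sequences that begin with G had the lowest ratio of the 4 first bases. They held 5.34% ± 0.532 of the 23H-RNA level among inputs and 0.592% ± 0.0794 among co-IPs (n = 3, no overlap, exact permutation p = 0.1), with a ratio of RPM of 3.55. The ratio was 8.29 without mir-5592 siRNA 17, which held 28.5 of the 45.7 RPM of the input. The other tested sequence that begins with G, Y57G11C.1145_hairpin siRNA 10, stood at 47.5, 72.7 and 48.3 RPM against 0.37, 0.23 and 0.00 RPM and rose by 5.56 ± 0.25 (adjusted p = 9.68e-20 in limma). With an input mean of 0.2 RPM it passed the filter through its level in co-IPs, so its call is not independent of that. Sequences that begin with C rose 27.9-fold and those that begin with T 20.0-fold. The ratio for A was 164, but it rested on 1 sequence, Y57G11C.1145_hairpin siRNA 1: without it the ratio for A was 62.1, and without the 3 leading hairpins the ratios were 22.7 for A, 22.0 for C, 27.0 for T and 2.09 for G. A position in mir-5592 shows the G case base by base, since 4 sequences of the same strand start at neighbouring bases. The capital marks the first base.
mir-5592 siRNA 11: Atgtattaaacggtaagggccg
mir-5592 siRNA 2: Tgtattaaacggtaagggccgg
mir-5592 siRNA 17: Gtattaaacggtaagggccggc
mir-5592 siRNA 9: Tattaaacggtaagggccggct
All 4 are 22 nt long. The form that begins with G, siRNA 17, was the single tested 23H-RNA that fell, from 27.6, 29.4 and 28.6 RPM in the inputs to 16.18, 24.03 and 19.12 RPM in the co-IPs (-0.52 ± 0.23, adjusted p = 0.0313 in limma), a direction that flipped to 1.93 under median-of-ratios scaling. The neighbour 1 base upstream, siRNA 2, rose from 80.89, 69.2 and 92.01 RPM to 970.3, 1172 and 910.9 RPM (3.64 ± 0.19, adjusted p = 2.22e-18 in limma). siRNA 9, 1 base downstream, rose from 38.6, 41.9 and 40.5 RPM to 97.6, 106.0 and 141.4 RPM (1.47 ± 0.21), and siRNA 11 rose from 4.19, 5.0 and 4.02 RPM to 33.4, 81.1 and 69.6 RPM (3.44 ± 0.27).

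Duplex partners were compared as the level of one strand over the other. Among all 23H-RNA rows 201 pairs could form a duplex with overhangs of 2 nt at both ends, and in 47 a strand reached 10 RPM in the co-IP, but in only 6 were both strands at or above 1 RPM in the input. For the first pair printed above, mir-5592 siRNA 1 exceeded siRNA 4 by 18.1-fold among inputs and by 7.74-fold among co-IPs, so the rarer strand gained more in this pair. On the log2(RPM + 1) scale this strand ratio was 4.07 ± 0.0823 among inputs and 2.94 ± 0.366 among co-IPs (SD, n = 3, exact permutation p = 0.1). The F43E2.6 pair had a ratio near 1 in both fractions, 1.299 in the lysates and 1.627 in the co-IPs, and its libraries overlapped (exact permutation p = 0.8). Another pair, mir-5592 siRNA 8 (first base C) and siRNA 17 (first base G), turned over: siRNA 8 was at 0.284 of siRNA 17 among inputs and at 7.80 times it among co-IPs, without overlap (exact permutation p = 0.1). The remaining 3 pairs moved toward the strand that led in the input: mir-5592 siRNA 7 over siRNA 26 went from 30.2 to 99.4 (exact permutation p = 0.1), F43E2.6 siRNA 9 over siRNA 23 from 1.90 to 5.55 (exact permutation p = 0.1) and mir-5592 siRNA 12 over siRNA 18 from 1.95 to 2.54 (exact permutation p = 0.2).

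MicroRNAs, although they were most of the co-IP by level, moved in both directions. Of 439 rows 164 were tested, of which 67 were higher (40.85%), 60 lower (36.59%) and 37 not called. Over all features 6.6% were higher and 90.1% lower. The miRNA median was 0.04 beside -3.65 over all features. Under equal totals 62 were higher and 72 lower, and under median-of-ratios scaling 135 were higher and 11 lower, so the split of directions depends on the scaling. With the filter on inputs alone 56 of 162 were higher and 69 lower, beside 2.83% higher and 94.7% lower over all features.

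The miRNA with the largest rise was miR-789-3p, at 762.0, 813.5 and 1206 RPM in the co-IPs and 8.08, 9.57 and 12.97 RPM in the inputs (6.36 ± 0.22, adjusted p = 6.36e-22 in limma). The table lists it in a pair of rows with identical values, which count the same reads. It was followed by miR-243-3p, a miRNA known from earlier work to bind RDE-1 and to act on Y47H10A.5 through secondary siRNAs. miR-243-3p stood at 356.2, 612.9 and 550.7 RPM against 9.46, 7.38 and 6.45 RPM (5.83 ± 0.26, adjusted p = 1.16e-19 in limma). Its input mean of 7.76 RPM was under 10 RPM, so it passed the filter through its level in co-IPs, and its call is not independent of that. The opposite strand, miR-243-5p, stood at 240.3, 272.4 and 322.9 RPM against 212.6, 186.1 and 236.1 RPM, a difference of 0.39 ± 0.19 (adjusted p = 0.0441 in limma). Under equal totals it no longer passed the test, at 0.07 (adjusted p = 0.714 in limma). The 22G-RNA row of its known target Y47H10A.5 stood at 1.32, 1.24 and 1.55 RPM in the co-IPs and 3.96, 5.74 and 5.41 RPM in the inputs, below the filter for a test.

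The most abundant miRNAs spanned the range of small changes. miR-58a-3p, of the mir-58 family that is abundant in intestine and hypodermis, stood at 142700, 212200 and 257700 RPM against 112800, 96510 and 98710 RPM (0.95 ± 0.17). miR-1-3p, the muscle miRNA, fell from 35250, 33470 and 43180 RPM to 12750, 9621 and 6358 RPM (-2.01 ± 0.18, adjusted p = 3.40e-12 in limma), a direction that flipped to 0.55 under median-of-ratios scaling. A group of 3 miRNAs of other tissues had values near each other, namely miR-71-5p at 1.12 ± 0.19, the neuronal miR-124-3p at 1.19 ± 0.24 and the glial miR-228-5p at 1.03 ± 0.31, the last with overlapping groups. These values compare co-IPs with inputs of whole animals and do not measure levels in a tissue.

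Families gave a uniform picture for their main strands in some cases. The main strand of a hairpin is here the one higher in these inputs, and the other is the opposite strand. Over all tested features 6.6% were higher and 90.1% lower. Some opposite strands reached 10 RPM in these inputs alone. Examples are miR-40-5p (1.01 RPM in the co-IPs, 35.7 RPM in the inputs) and miR-56-5p (4.06 and 59.2 RPM). miR-48-3p did so in the co-IPs alone (62.4 and 3.26 RPM). The mir-35 family (miR-35 to miR-42), which marks oocytes and embryos in gravid adults, summed to 159400, 122400 and 110500 RPM in the co-IPs and to 28110, 33660 and 34700 RPM in the inputs. All 8 main strands were higher, led by miR-35-3p (44750, 38520 and 26680 RPM against 4171, 4706 and 5004 RPM, 2.96 ± 0.17), while all 7 tested opposite strands were lower, beside 90.1% of all features, and 4 of them under median-of-ratios scaling. The mir-51 family summed to 80890, 79600 and 94810 RPM against 18370, 22040 and 20230 RPM, with 5 of 6 main strands higher. Of its tested opposite strands 4 of 5 were lower, beside 90.1% of all features. Under median-of-ratios scaling 3 of those 5 were higher and 1 lower. Its most abundant member, miR-52-5p, stood at 45980, 45500 and 52620 RPM against 7304, 9512 and 8511 RPM (2.51 ± 0.16). The lin-4 family, regulators of larval timing, had both main strands higher, lin-4-5p at 1.11 ± 0.16 and miR-237-5p at 2.37 ± 0.16. The let-7 family, which acts later in larval timing, summed to 13970, 18530 and 17830 RPM against 21040, 16350 and 20330 RPM, so the groups overlapped. Of its 7 main strands 2 were higher (miR-48-5p and miR-795-5p) and 2 lower (let-7-5p and miR-84-5p). let-7-5p was at -0.44 ± 0.16 with overlapping groups, and at 2.11 under median-of-ratios scaling, under which miR-84-5p went from -1.46 to 1.09 and all 7 main strands were higher. In the mir-58 family 1 of 5 tested main strands was higher, miR-58a-3p.

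The ratio of the 3p to the 5p strand of a hairpin does not depend on library scaling, apart from the pseudocount, and was tested for the 88 of 189 hairpins with enough reads on both strands. It differed between co-IP and input in 70 (79.5%) by limma, 42 toward 3p (47.7%) and 28 toward 5p (31.8%). This test was added after the data were seen. Some hairpins have a strand with the same listed level, so they are not all separate. An example is miR-44 and miR-45, both toward 3p, with 3p strands at 1876 RPM in the inputs and 3012 RPM in the co-IPs. In 51 of the 70 the strand that was higher in the input was further ahead in the co-IP. For miR-40 the 3p strand went from 920.3, 1274 and 1104 RPM in the inputs to 10180, 7653 and 7520 RPM in the co-IPs, and the 5p strand from 20.0, 40.7 and 46.5 RPM to 0.47, 1.74 and 0.81 RPM. That is a change of the log2 ratio of 7.10 ± 0.31, the largest of the 88, with an adjusted p of 2.46e-19 in limma. For miR-52 the same held toward 5p, with a change of -4.85 ± 0.27.

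In the remaining 19 of the 70 the rarer strand gained. For miR-84, of the let-7 family, the 3p strand rose from 8.11, 9.95 and 13.01 RPM to 173.1, 168.5 and 245.3 RPM, while the main 5p strand fell from 7429, 5947 and 8341 RPM to 2700, 2762 and 2351 RPM. The log2 ratio of 3p to 5p moved by 5.58 ± 0.29 (adjusted p = 1.41e-17 in limma). miR-48, of the same family, moved by 2.87 ± 0.34 in that direction, with miR-48-3p at 57.1, 71.4 and 58.8 RPM against 2.16, 5.65 and 1.96 RPM. miR-1 moved by -3.32 ± 0.28 toward its rare 5p strand. In 6 hairpins the strand that was higher differed between input and co-IP, namely miR-243, miR-247, miR-358, miR-800, miR-1830 and miR-4816. For miR-243 the log2 ratio of 3p to 5p went from -4.61 among inputs to 0.83 among co-IPs (change 5.44 ± 0.30, adjusted p = 4.67e-17 in limma). This rests on the level of the 5p row in these inputs. In the inputs of the other co-IP tables the 3p strand was ahead, with 77.2 against 1.89 RPM under nrfl-1 RNAi and 118.1 against 7.25 RPM in the HA::ALG-1 strain, so whether the row counts the same RNA in each table is uncertain. Of these 6 hairpins, miR-243 was the only one with a strand above 100 RPM in either group.

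**Figure D5:**
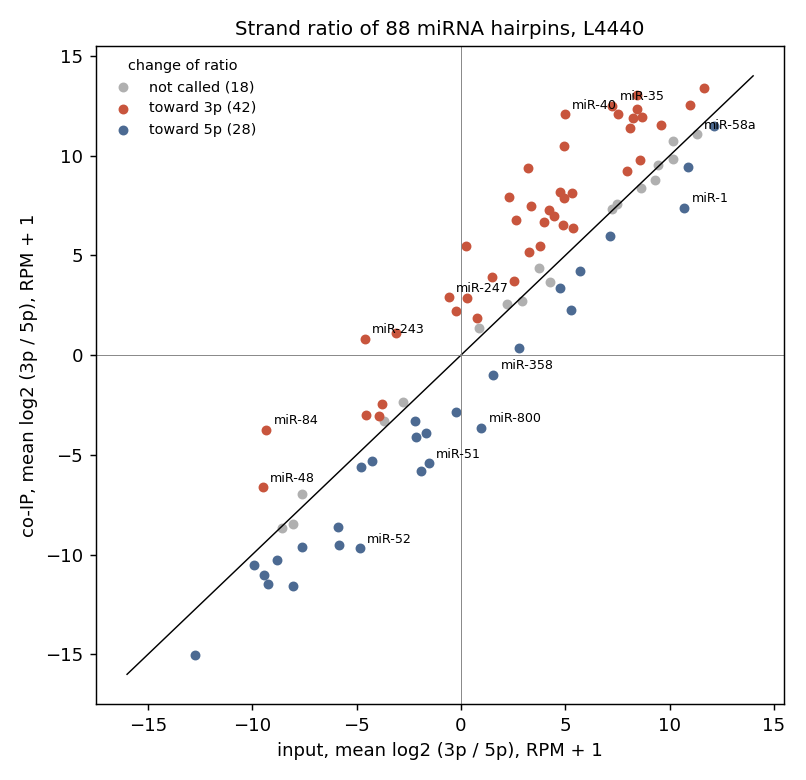
Mean log2 ratio of the 3p to the 5p strand (each RPM + 1) in the inputs (horizontal) and co-IPs (vertical) for 88 miRNA hairpins, with the line of no change and lines at 0. Red points (42) moved toward 3p and blue points (28) toward 5p by limma, and miR-243 lies left of 0 among inputs and above 0 among co-IPs.

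Among ERGO class 26G-RNAs 37 of 123 rows were tested, and 30 were higher and none lower in limma, beside 6.6% higher and 90.1% lower over all features, with a median of 0.81. Of the 37 rows 7 had an input mean under 10 RPM, and with the filter on inputs alone 25 of 31 were higher. At an unadjusted p under 0.05 none was lower either, since the 7 uncalled rows had adjusted p-values between 0.0898 and 0.850. The rise was small, and under equal totals 19 were higher and 1 lower. The most abundant row, T05E12.10, rose by 1.59 ± 0.19 (adjusted p = 1.24e-09 in limma) from the values given above. Y116A8B.1 stood at 144.2, 304.3 and 275.7 RPM against 63.2, 100.8 and 93.9 RPM (1.43 ± 0.23), and the row named mir-8199 at 184.6, 310.0 and 224.7 RPM against 59.8, 109.6 and 100.6 RPM (1.42 ± 0.21). C44B11.6 was not called, with 64.2, 90.8 and 78.5 RPM against 74.3, 79.3 and 102.7 RPM (-0.13 ± 0.20). Only 1 ALG class 26G-RNA row was tested, Y57G11C.36, at 225.6, 403.8 and 176.9 RPM against 83.7, 88.4 and 101.1 RPM (1.47 ± 0.22, adjusted p = 2.40e-07 in limma). The summed level of all ALG class rows overlapped between the groups, as given above.

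Secondary siRNAs were low in all libraries, and the labels state no enzyme treatment for them that opens the 5′ triphosphate of 22G-RNAs to cloning. Of the CSR class 31 of 3608 rows were tested, 30 were lower and 1 was not called (median -1.76). Of the WAGO class 8 of 2215 were tested and 7 were lower (median -1.26). Over all features 90.1% were lower, so these shares are near the background. Under median-of-ratios scaling 11 CSR rows were higher and 1 lower, and all 8 WAGO rows were higher. snrp-200, a splicing helicase, stood at 7.87, 5.59 and 7.98 RPM against 21.9, 19.4 and 39.7 RPM (-1.73 ± 0.26), and Y62F5A.9 at 4.12, 6.80 and 7.62 RPM against 20.0, 24.5 and 27.6 RPM (-1.82 ± 0.25). Both directions flipped under median-of-ratios scaling, to 0.65 and 0.53, and the CSR class median became 0.43. The single tested row of a 23H-RNA target, Y37E3.30, is also a 23H-RNA source, so both products of the locus can be set side by side. Its 22G-RNAs stood at 6.18, 10.2 and 6.34 RPM against 13.6, 18.8 and 21.3 RPM (-1.15 ± 0.24, and 1.20 under median-of-ratios scaling), while its 23H-RNAs stood at 10.5, 21.5 and 20.8 RPM against 0.21, 0.70 and 0.75 RPM. Of 29 genes of the RNAi pathway 25 had a 22G-RNA row, with an input mean of at most 11.97 RPM, and 2 were tested. The row of rde-1 itself was at 0.22, 0.00 and 0.08 RPM in the co-IPs and 0.47, 0.23 and 1.42 RPM in the inputs. No row of rde-4 is listed.

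piRNAs were depleted. Of 15363 rows 2216 were tested, of which 2163 fell and 15 rose, and they are most of the 90.1% of all features that were lower. The median was -3.83. Under median-of-ratios scaling it was -1.82, with 1747 lower and 214 higher. Nearly all tested rows, 2207, had an input mean of at least 10 RPM, so these counts are not independent of the filter. With no filter, every co-IP was below every input in 76.1% of the 13382 piRNA rows above 0 and above every input in 0.448%. Over the rows of all classes above 0 the shares were 60.8% and 2.97%. The largest fall was that of 21ur-1641, from 391.4, 481.5 and 546.0 RPM in the inputs to 1.55, 2.56 and 2.48 RPM in the co-IPs (-7.22 ± 0.25, adjusted p = 8.73e-22 in limma). All of the 10 largest decreases among all features were piRNAs. 21ur-5709, the most abundant in the input, went from 1836, 2257 and 3039 RPM to 31.9, 33.8 and 34.6 RPM (-6.08 ± 0.20). The most abundant in the co-IP, 21ur-552, fell only by 0.97 ± 0.19 on the log2 scale, from 336.1, 334.6 and 345.7 RPM to 143.6, 174.3 and 206.0 RPM, and rose by 1.58 under median-of-ratios scaling. The piRNA class was therefore uneven, with falls between -7.22 and values above 0.

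The same strain after dcr-1 RNAi, in which double-stranded RNA against the Dicer gene was fed, gave a second co-IP and input pair from other libraries. There 2444 of 2516 features differed (97.1%), 157 higher (6.24%) and 2287 lower (90.9%). Endogenous 23H-RNAs summed to 17940, 13830 and 19640 RPM in those co-IPs and 596.1, 593.8 and 601.8 RPM in those inputs. The row of 23H-RNAs from dcr-1 shows the fed target: it stood at 1.45, 2.18 and 2.34 RPM in the empty vector co-IPs against 3.55, 2.85 and 3.91 RPM in their inputs, and at 15980, 12780 and 18040 RPM in the dcr-1 RNAi co-IPs against 1664, 1529 and 1729 RPM. Under the empty vector that row fell by 0.57 ± 0.20 (adjusted p = 0.00647 in limma), a direction that flipped to 1.29 under median-of-ratios scaling. The row passed the filter only through the dcr-1 RNAi libraries, since every empty vector value was well under 10 RPM. Enrichment itself differed between both treatments for 60 features (2.38%), 20 higher (0.795%) and 40 lower (1.59%) after dcr-1 RNAi, and 12 of the 40 were 23H-RNAs. The count of 60 was 209 without L4440 co-IP replicate 1, 16 without L4440 input replicate 3, 18 without L4440 input replicate 1 and 22 without L4440 co-IP replicate 2. It was 22 and 29 without dcr-1 RNAi co-IP replicate 1 and 2, and 18, 24 and 29 without dcr-1 RNAi input replicate 1, 2 and 3.

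Other co-IPs of the series were made under other conditions and normalised in other tables, so values stand side by side without a test between them. In animals fed nrfl-1 double-stranded RNA, GFP::RDE-1 co-IPs and inputs differed in 81.2% of 483 features, 103 higher (21.3%) and 289 lower (59.8%), and of the 53 23H-RNAs higher here 27 were tested there and all 27 were higher. Most of the 53 were selected by their co-IP level here, and in that table too a row can pass through the co-IP alone: 7 of the 27 had an input mean of at least 10 RPM there, and all 7 were higher. Per the labels those libraries and the HA::ALG-1 ones were made from purified RNA of 16 to 30 nt. The libraries in which oma-1 was targeted together with nrfl-1 were also treated with RppH, an enzyme that opens 5′ triphosphates to cloning, so RNAi target and treatment cannot be told apart there. In them 99.1% of 4372 features differed, 175 higher (4%) and 4157 lower (95.1%), and there 32 of the 53 were tested and all 32 were higher. Of the 32, 7 had an input mean of at least 10 RPM there, and all 7 were higher. In co-IPs of the miRNA Argonaute HA::ALG-1, where 93.2% of 658 features differed, 49 higher (7.45%) and 564 lower (85.7%), 12 of the 53 were tested, of which 3 were higher and 6 lower. Y57G11C.1145_hairpin siRNA 1 stood at 9.60 ± 2.14 RPM in the HA::ALG-1 co-IP and 17.9 ± 0.964 RPM in its input, and at 4530 ± 1222 and 16.3 ± 5.30 RPM in the GFP::RDE-1 pair with nrfl-1 targeted (n = 3 each). F43E2.6 siRNA 1 stood at 225.4 ± 38.6 and 148.5 ± 2.95 RPM with HA::ALG-1, and at 38500 ± 13580 and 151.9 ± 23.6 RPM with GFP::RDE-1 when nrfl-1 was targeted.

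The miRNAs differed more between these co-IPs of RDE-1. Of the 67 higher here 58 were tested under nrfl-1 RNAi, where 22 were higher and 17 lower, while under RNAi of both genes 56 were tested, 52 were higher and none was lower in limma. miR-52-5p, at 2.51 here, had a log2 difference of means of -3.09 under nrfl-1 RNAi, -1.65 with HA::ALG-1 and 1.09 under RNAi of both genes. miR-58a-3p, at 0.95 here, had -2.65, -1.02 and 1.08 there. miR-243-3p was enriched in all: under nrfl-1 RNAi it stood at 9772 ± 3541 RPM in the co-IP and 77.2 ± 9.94 RPM in the input, under RNAi of both genes at 2636 ± 1544 and 24.6 ± 2.77 RPM (n = 2), and with HA::ALG-1 at 424.7 ± 55.0 and 118.1 ± 10.7 RPM (n = 3). Its 5p strand, at 186.1 to 236.1 RPM in the inputs here, was at 1.89 ± 1.09 RPM in the input under nrfl-1 RNAi. The ERGO class 26G-RNAs that were higher here had a median log2 difference of 0.05 under nrfl-1 RNAi, -0.52 under RNAi of both genes and -2.32 with HA::ALG-1 over all 30 rows. Most of the 30 were below the filter there. In the same order, 8, 2 and 4 rows were tested, with medians of 0.12, -0.83 and -3.73.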

How the data were processed

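Small RNAs were sequenced from lysates and GFP::RDE-1 co-IPs of adults under L4440, with 3 libraries each. Per the labels, libraries were made with the NEBNext or the QIAseq kit, not said which for which library, without an initial size selection, from inserts of 16 to 30 nt. The authors deposited levels in RPM made with tinyRNA, per the series design text; annotation, build and read collapsing are not given in the sources used here. The unit was read from the values. Whole reads could not be recovered for nearly all values (85.6% to 94.6% of low values whole over all rows, 21.8% to 76.7% by chance), so no count test was run.

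limma 3.58.1 in R 4.3.3 was fitted to log2(RPM + 1) of the 12 libraries of the table, with 1 mean per group, empirical Bayes moderation with a trend, a mean of at least 10 RPM and Benjamini-Hochberg adjustment over 2516 features. The pseudocount understates changes of low features. The planned design allowed for counts or normalized values, and the latter applied. The fit was tested on simulated data. Sums and shares were compared by exact two-sided permutation over libraries. Nothing says that replicates came from separate cultures, so p-values measure only the spread between these libraries. Named features are the manipulated genes, the 10 largest rises and falls without overlap, the leading row of each class, the 3 leading rows of each 23H-RNA source, strands of the named miRNAs and of 5 families, and 22G-RNA rows of RNAi genes; other names were chosen after their values were seen. Members and lists were chosen with earlier results of these data known. Alternatives were the pseudocount, filter, scaling, samples fitted, a replicate block and each library left out. All sample columns of the table were mapped, with 0 left over. Chromosomes of 23H-RNA sources came from Ensembl 115 and RefSeq annotations of WBcel235 by name.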

Additional observations from a re-analysis of the deposited data

Results flagged for a closer look

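For 9 features named above or in their families, the enrichment of the co-IP over its input differed between dcr-1 RNAi and the empty vector by the interaction test in limma. Values are dcr-1 RNAi minus empty vector on the log2(RPM + 1) scale, with the adjusted p over all features. The largest was the dcr-1 23H-RNA row itself, the fed target, at 3.81 ± 0.28 (SE, adjusted p = 1.79e-11). For a further 4 23H-RNAs the log2 difference was smaller after dcr-1 RNAi, although it was positive in both treatments. Y57G11C.1145_hairpin siRNA 3 went from 6.44 to 3.32, a difference of -3.12 ± 0.34 (adjusted p = 3.03e-07 in limma). F43E2.6 siRNA 3 differed by -2.03 ± 0.38 (0.00202), Y57G11C.1145_hairpin siRNA 6 by -1.64 ± 0.37 (0.0136) and C36A4.14 siRNA 2 by -1.39 ± 0.38 (0.0406). In this order, the 4 had input means of 0.137, 3.88, 0.35 and 0.0633 RPM under the empty vector. They passed the filter through their levels in co-IPs, so these differences rest on few input reads. Among miRNAs, miR-41-3p of the mir-35 family went from 1.42 to -0.02, a difference of -1.44 ± 0.30 (0.0053). The opposite strands miR-39-5p, miR-52-3p and miR-54-5p differed by 1.25 ± 0.33 (0.0367), 1.05 ± 0.27 (0.0346) and 1.65 ± 0.28 (0.000563), and miR-54-5p changed sign from -0.64 to 1.01.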

How the results depend on the processing

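The 23H-RNA share was higher in the co-IP under every setting run for it, and counts of calls within a treatment depended mostly on filter and scaling, while the count of differences between treatments also depended on single libraries and the pseudocount. Without a filter 13378 features were called under L4440 (676 higher, 12702 lower) and 15146 under dcr-1 RNAi, with 445 23H-RNAs higher, 117 miRNAs higher, 101 miRNAs lower and 9548 piRNAs lower. Filtered on inputs, 101 features and 10 23H-RNAs were higher. Median-of-ratios scaling gave 463 higher features, 135 miRNAs higher, 11 miRNAs lower and 236 differences between treatments, and equal totals gave 19 ERGO 26G-RNAs higher. A pseudocount of 0.1 gave 12 differences between treatments and 10 gave 169. Under median-of-ratios scaling the log2 difference turned positive for let-7-5p (2.11), miR-1-3p (0.55), the dcr-1 23H-RNA row (1.29), 21ur-552 (1.58), and the 22G-RNAs of Y52B11A.18 (2.36), klp-7 (1.38 in both its rows), Y37E3.30 (1.20), snrp-200 (0.65) and Y62F5A.9 (0.53), because that scaling raises every co-IP.

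Leaving out each library in turn gave 2417 to 2433 calls under L4440 (155 to 175 higher, 2257 to 2269 lower), 2429 to 2447 under dcr-1 RNAi and 16 to 209 differences between them, and 53 23H-RNAs higher throughout. It gave 63 to 70 miRNAs higher, 55 to 60 lower, 23 to 33 ERGO 26G-RNAs higher, 2155 to 2168 piRNAs lower, a 23H-RNA share 2.67 to 3.53 points higher and a 23-nt share 21.52 to 22.95 points higher. Strand ratios changed in 67 to 71 hairpins, 48 to 52 further toward the strand higher in the input and 18 to 21 toward the other. Over the 55 tested named features and their alternatives, 784 values kept direction and call, 15 lost the call and 10 turned. Same-number correlations of co-IP and input under L4440 were 0.063, -0.00509 and -0.266, and those of different numbers lay between -0.264 and 0.269. No pairing by replicate number was seen, but 3 libraries per group could miss one. With the replicate number as a block 2430 features were called under L4440, 2443 under dcr-1 RNAi and 53 between them, and 1 named feature lost its call. Depth limits loci under 1 RPM in the input.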

Other observations

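The miR-789 hairpins are listed with strands whose order differs between tables. Here miR-789-2-5p stood at 3.25, 7.84 and 12.1 RPM in the co-IPs and 0.17, 0.37 and 0.18 RPM in the inputs, below the filter, beside miR-789-3p at 762.0 to 1206 RPM in the co-IPs. Under nrfl-1 RNAi the order was the other way round, with miR-789-2-5p at 11720 ± 4693 RPM in the GFP::RDE-1 co-IP and 27.5 ± 7.72 RPM in the input, and miR-789-3p at 19.7 ± 5.57 and 2.75 ± 0.848 RPM (n = 3 each). With HA::ALG-1 miR-789-2-5p stood at 20.1 RPM in the co-IP and 23.4 RPM in the input. These tables were normalised separately and no test was made between them. Whether the rows count the same RNA in each table is uncertain.

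The 15 piRNAs that were higher in the co-IP, chosen after their values were seen, were led by 21ur-601, at 35.1, 61.3 and 44.2 RPM in the co-IPs against 9.47, 9.34 and 8.18 RPM in the inputs (2.23 ± 0.24, adjusted p = 1.84e-10 in limma). Of the 15, 8 had an input mean under 10 RPM and passed the filter through co-IPs, 21ur-601 among them, and with the filter on inputs alone 9 of 3265 piRNAs were higher. 21ur-619 stood at 23.8, 34.7 and 36.5 RPM against 5.81, 9.76 and 7.47 RPM. Under nrfl-1 RNAi the log2 difference of means was -0.12 for 21ur-601 and -0.26 for 21ur-619.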
